A study of Mus musculus with 6 samples.

Results

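The tripartite motif (TRIM) genes were followed in mouse cultures of EGCs (enteric glial cells, which support the neurons of the gut) with and without lipopolysaccharide (LPS, a component of the bacterial outer membrane). Members were taken by name: every gene in the count files whose symbol is Trim, a number and at most 1 letter. This gave 67 of 46603 gene identifiers. Of these, 47 passed the filter on low counts and were tested together with the rest of the 15226 genes that passed it. The cells came from whole intestines of C57BL/6J embryos at embryonic day 14.5, were grown for 1 week as floating neurospheres and were then plated. Poly(A) RNA was sequenced from 3 untreated control libraries and from 3 libraries of cells given LPS at 100 ng/ml for 12 h. No transgene, Cre or sort was used to mark the glia, so every cell type that grows in such a culture could contribute RNA.

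TRIM proteins share an amino-terminal RING finger, B-box and coiled coil, and most act as E3 ubiquitin ligases, the enzymes that pick the protein to be tagged with ubiquitin. Their carboxy-terminal end varies and sets what they bind: a PRY-SPRY domain in the antiviral members, a PHD finger with a bromodomain in the chromatin regulators, NHL repeats in several neuronal members and a COS box in those that bind microtubules or the muscle sarcomere. Several are known to be induced by interferon. TRIM21 is a cytosolic antibody receptor, TRIM25 ubiquitinates the RNA sensor RIG-I, and TRIM5 of primates binds incoming retroviral capsids.

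The libraries held 18775316 to 23664312 counts, and 3 counts, taken as the detection floor, were worth 0.124 to 0.167 CPM (counts divided by library size and scaled to a common total). Levels below are CPM on library sizes corrected by the trimmed mean of M-values (TMM). All 8 glial markers were detected, among them Sox10 at 87.9 ± 13.5 CPM in control and 76.9 ± 1.15 in LPS (SD, n = 3). With LPS, S100b was called lower (log2 fold change -1.91, adjusted p = 0.0238), Fabp7 was called higher (1.30, adjusted p = 0.0122) and the other 6 were not called. The cultures were mixed. The 12 macrophage markers summed to 3870, 4970 and 11600 CPM in control libraries 1, 2 and 3 and to 4020, 5220 and 19200 in LPS libraries 1, 2 and 3, with none at 0. Lyz2 made up most of these sums, and single markers went different ways with LPS: Adgre1 was called higher (6.87-fold, adjusted p = 0.0452), and with the replicate number as a block 5 of the 12 were called higher and 4 lower. The part of this in the TRIM values was not tested. The libraries numbered 3 stood apart in both groups: all 12 macrophage markers were above both other libraries, and all 7 neuron markers were below them (summed 458, 448 and 255 CPM in control, 419, 438 and 272 in LPS). A level in such bulk RNA cannot separate fewer cells of a type from less RNA per cell. Members that move with library number 3 are pointed out below, and results are given with and without those libraries where a call changes. The labels do not say that the 3 libraries of a group came from separate cultures, so p-values measure the spread between these libraries.

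The family did not move as one. With LPS, 12 of the 47 tested members were called higher at an adjusted p under 0.05, where 9.09% of all tested genes were, and 5 were called lower, against 6.71% of all genes. The median log2 fold change of the members was 0.0959, beside -0.02 over all genes. Every LPS library lay above every control library for 18 members (19.3% of all genes did so) and below every control library for 7 (19.4% of all genes). The calls were unevenly spread over roles, but the roles were assigned with earlier results of these data known. The counts by role are a description and not a test. Of the 9 tested genes of the antiviral cluster on chromosome 7, 7 were higher and none lower, and of the 12 members that act in innate sensing and signaling, 5 were higher and 1 lower. Of the 26 other tested members, none was called higher and 4 were called lower. By carboxy-terminal architecture, 10 of the 25 tested PRY-SPRY members were higher and 1 was lower, 2 of 6 COS-box members were lower, and 1 of 4 members with a PHD finger and bromodomain was lower. Of the 3 tested members with NHL repeats, none was called. Of the 4 with no further domain or none assigned, 2 were higher, and of the 5 with another kind of end, 1 was lower.

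**Figure D1:**
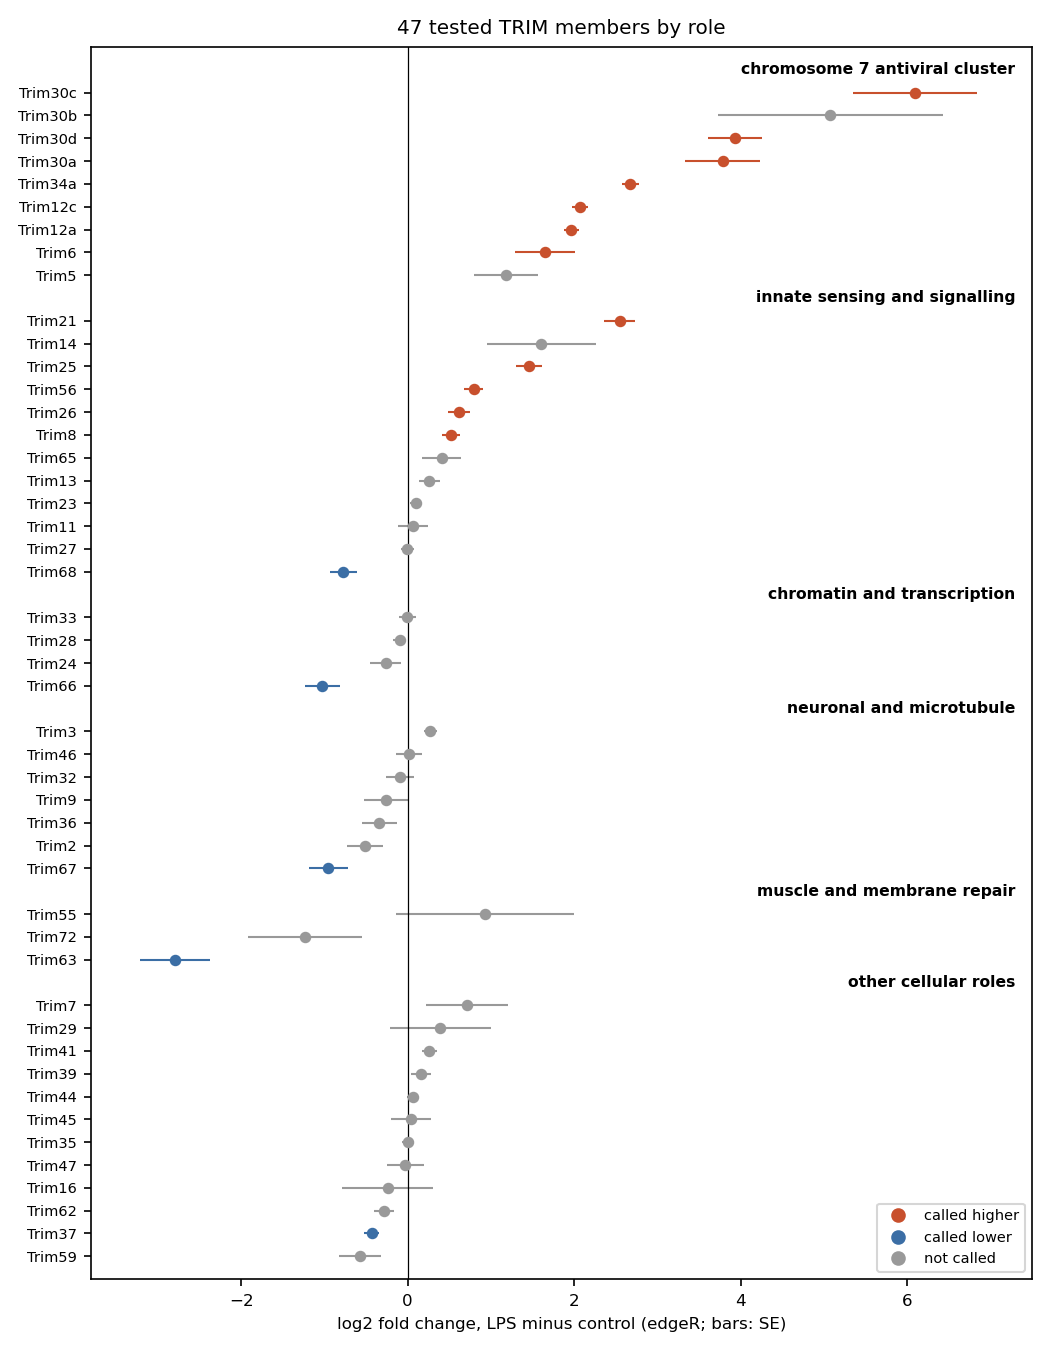
Log2 fold change of each of the 47 tested TRIM members, LPS minus control (x axis; points with SE bars from edgeR, 3 libraries per group), ordered by role and colored by call. The 9 members of the chromosome 7 cluster lie between 1.19 and 6.09, the 12 signaling members between -0.77 and 2.55, and most members of other roles near 0.

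The cluster holds 10 members within 289.1 kb of chromosome 7 (GRCm38 chr7:104218793-104507849), in the order Trim6, Trim34a, Trim5, Trim12a, Trim34b, Trim12c, Trim30b, Trim30c, Trim30a and Trim30d. Trim6, Trim34a and Trim34b lie on the plus strand and the others on the minus strand. It sits among olfactory receptor genes: of 27 other genes in the files that lie within 197 kb of either end, 24 had no count in any library and the highest had 8 counts in all. All 9 tested members of the cluster had every LPS library above every control library. The 10th, Trim34b, had 11 counts in control and 11 in LPS and was not tested.

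Trim30a encodes a regulator known to restrain Toll-like receptor signaling. It was at 10.5, 14.7 and 29.4 CPM in control libraries 1, 2 and 3 and at 205, 221 and 329 in LPS libraries 1, 2 and 3. The groups were far apart, although library 3 was the highest of each group. The log2 fold change was 3.79 ± 0.45 (SE, adjusted p = 0.00592, edgeR quasi-likelihood test), or 13.8-fold. Trim30d, its neighbor and close copy, was at 5.21, 6.68 and 10.4 CPM in control and 94.6, 102 and 144 in LPS, again with library 3 highest in both groups. Its log2 fold change was 3.93 ± 0.32 (adjusted p = 0.00176). Without both libraries numbered 3, the log2 fold changes of Trim30a and Trim30d were 4.10 and 4.07.

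The other Trim30 genes were near or under the detection floor in control cells. Trim30c had 3, 4 and 3 counts in control and 102, 108 and 367 in LPS. On corrected library sizes the LPS libraries held 70.9 times as many counts in all, with a 95% exact interval of 38.3 to 149 that covers counting error only (edgeR log2 fold change 6.09 ± 0.75, adjusted p = 0.00647). The log2 fold change was 5.22 without LPS library 3 and 5.16 without both libraries numbered 3, and the call was kept. Trim30b had 1, 3 and 1 counts in control and 12, 12 and 125 in LPS, a ratio of 36.6 (15.3 to 114). Library 3 supplied most of the LPS counts of both genes. Trim30b was not called by the edgeR quasi-likelihood test on all 6 libraries (log2 fold change 5.08 ± 1.35, adjusted p = 0.0556). It was called once the replicate number was a block (4.78, adjusted p = 0.0221), without LPS library 3 (3.04, adjusted p = 0.0186), without both libraries numbered 3 (2.80, adjusted p = 0.00964), by DESeq2 (adjusted p = 0.000386) and by the edgeR exact test (adjusted p = 0.00152).

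Trim34a and the Trim12 genes differed from the Trim30 genes in how tightly their libraries agreed. Trim34a was at 5.59, 5.0 and 5.58 CPM in control and at 33.7, 32.7 and 36.8 in LPS. The libraries numbered 3 did not stand apart here, and the log2 fold change of 2.67 ± 0.10 had the smallest adjusted p of any member (0.000157). Trim12c was at 19.9, 21.1 and 18.4 CPM in control and 88.6, 84.1 and 76.5 in LPS (2.07 ± 0.09, adjusted p = 0.00026). Trim12a was at 11.2, 10.1 and 10.5 CPM in control and 40.8, 43.8 and 39.9 in LPS (1.97 ± 0.09, adjusted p = 0.00026). Library 3 was the lowest LPS library for both Trim12 genes. Trim6, which is known to make unanchored ubiquitin chains in interferon signaling, was barely expressed, at 0.423, 0.84 and 0.661 CPM in control and 1.53, 1.89 and 2.67 in LPS (1.65 ± 0.36, adjusted p = 0.0331). It passed the test in 1 of the 6 fits that leave out a library. Trim5 was at 2.37, 2.34 and 4.25 CPM in control and 4.59, 6.07 and 9.78 in LPS. Its groups did not overlap and its log2 fold change was 1.19 ± 0.38, but it was not called (adjusted p = 0.0928) except with the replicate block (0.0114), without the libraries numbered 3 (0.00653) and by DESeq2 and the edgeR exact test.

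**Figure D2:**
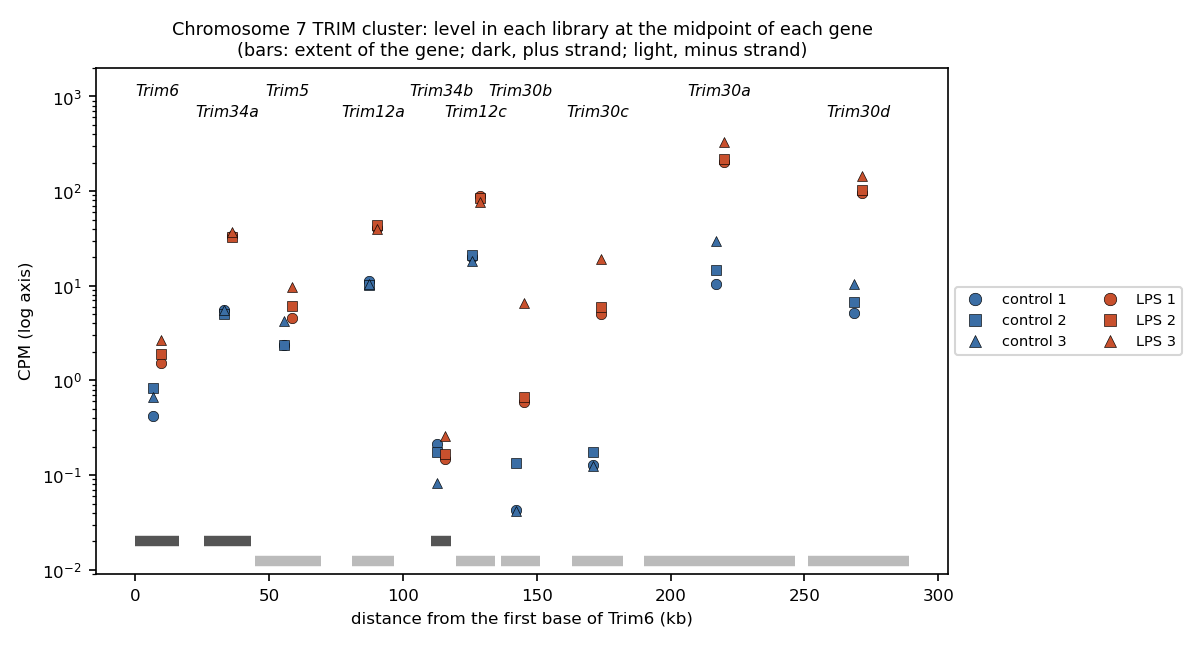
Level of each cluster member in each library (y axis, CPM on a log scale) at the midpoint of the gene (x axis, distance in kb from the first base of Trim6), with bars for the extent and strand of each gene. LPS libraries lie above control libraries at every gene except Trim34b, whose values were at or close to the floor. Log2 fold changes are 3.79 to 6.09 at the Trim30 genes and 1.19 to 2.67 at the other tested genes. Library 3 supplied most of the LPS counts of Trim30b and Trim30c.

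Copies within the cluster limit how far single genes can be told apart. Of all 31-base words in Trim34a transcripts, 68.5% also occur in transcripts of other genes and 48.7% in Trim34b. Trim5 and Trim12c share 37.9% of the words of Trim5. Trim12a shares 16% of its words with any other gene and Trim30a 11.9%. How the counting treated reads that align to several places is not given in the sources used here, so the split of counts between Trim34a and Trim34b, and between Trim5 and Trim12c, is uncertain. Trim34a also overlaps 609 exonic bases of an antisense gene, Gm47248.

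Promoter windows were searched for short motifs. The windows run from 250 bases before to 50 after each RefSeq start site (GRCm38.p6) and were scanned on both strands for the core of the interferon-stimulated response element (ISRE), GAAANNGAAA. The core occurs in the windows of 3.99% of 27025 genes. It was found in 7 of the 11 members called higher that have a window, in 0 of the 5 called lower and in 2 of the 20 that were tested and not called. The 7 are Trim12a, Trim12c, Trim21, Trim26, Trim30a, Trim30d and Trim34a, and the 2 are Trim5 and Trim2. Of the 7, 5 lie in the cluster, among them Trim12a with its copy Trim12c and Trim30a with its copy Trim30d. Trim6, Trim25, Trim56 and Trim30c were called higher without a match. The interferon-gamma activated site TTCNNNGAA was found in 1 of the same 11 members, Trim30c, against 9.55% of all genes, and the kappaB motif in 0 of 11, against 9.55% of all genes. The cluster sequences are shown because copies of one gene keep or lose the core. Each line gives 30 bases with the core in capitals, on the strand on which the core reads as above.
Trim34a, chr7:104244457-104244486, minus strand: gcagagaaaaGAAACTGAAActccaaacca
Trim5, chr7:104288136-104288165, plus strand: ctctggaaatGAAACAGAAAccacaactct
Trim12a, chr7:104315466-104315495, plus strand: ctctggaaatGAAACAGAAAccacaactct
Trim12c, chr7:104353359-104353388, plus strand: agctggaaatGAAACAGAAAccacaactct
Trim30a, chr7:104465210-104465239, plus strand: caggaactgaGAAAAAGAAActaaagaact
Trim30d, chr7:104507871-104507900, plus strand: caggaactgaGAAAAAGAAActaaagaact
Trim30c, chr7:104400896-104400925, plus strand: gtggaactgaGAAAAAGGAAccacagaact

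The stretch of Trim30a is identical to that of Trim30d over 30 of 30 bases. Trim30c keeps 25 of the 30 bases of the Trim30a stretch but not the core, and the capitals in its line mark the aligned bases. Trim5 and Trim12a have the same 30 bases, and Trim12c shares 28 of them. Outside the cluster, Trim21 and Trim26 carry overlapping cores, so that 16 bases are in capitals below. Trim8 has no window in the table used here. A match is a run of letters and says nothing on binding, and a window without a match shows only that these letters are not in it.
Trim21, chr7:102565447-102565476, minus strand: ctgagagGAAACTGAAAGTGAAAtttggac
Trim26, chr17:36836979-36837008, minus strand: ggcccgaGAAAAGGAAAGTGAAAtcggaag

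Among the called sensors and signaling members outside the cluster, Trim21 and Trim25 changed most. Trim21 was at 10.3, 9.91 and 12.3 CPM in control and 54.0, 57.3 and 79.1 in LPS (log2 fold change 2.55 ± 0.19, adjusted p = 0.00122), 5.86-fold. Trim25 was already abundant, at 70.1, 71.7 and 93.6 CPM in control, and reached 202, 194 and 250 in LPS (1.46 ± 0.16, adjusted p = 0.00453). Library 3 was the highest of both groups for both genes, and neither had overlapping groups. Trim56, known to promote cytosolic DNA and RNA sensing, was at 61.5, 62.1 and 58.1 CPM in control and 113, 113 and 89.2 in LPS (0.79 ± 0.11, adjusted p = 0.00993), with library 3 the lowest of each group. Trim26 went from 49.4, 51.0 and 53.2 CPM to 69.4, 72.9 and 94.0 (0.62 ± 0.13, adjusted p = 0.03). Trim8, which modulates cytokine and NF-kappaB signaling, went from 77.3, 82.2 and 95.4 CPM to 120, 114 and 133 (0.53 ± 0.11, adjusted p = 0.0292). The calls of Trim26 and Trim8 are the weaker ones of this group: they passed the test in 1 and 2 of the 6 fits that leave out a library, and Trim56 in 4 of 6.

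Trim14, a mitochondrial adaptor of RNA sensing, followed the library number. It was at 3.09, 4.11 and 8.42 CPM in control and 8.20, 9.02 and 30.4 in LPS, so that control library 3 overlapped the LPS libraries. It was not called in all 6 libraries (log2 fold change 1.60 ± 0.65, adjusted p = 0.155), but was called with the replicate block (1.48, adjusted p = 0.00794) and without the libraries numbered 3 (1.28, adjusted p = 0.0027). Without LPS library 3 alone it was at 0.72 (adjusted p = 0.302). The part of the macrophage markers in its level was not tested. Trim14 also overlaps 1356 exonic bases of Nans on the opposite strand, and the strand setting of the counting is not given in the sources used here. The remaining signaling members that were not called, Trim11, Trim13, Trim23, Trim27 and Trim65, had adjusted p-values up to 0.985. Trim65 was called higher without the libraries numbered 3 (0.59, adjusted p = 0.0207).

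**Figure D3:**
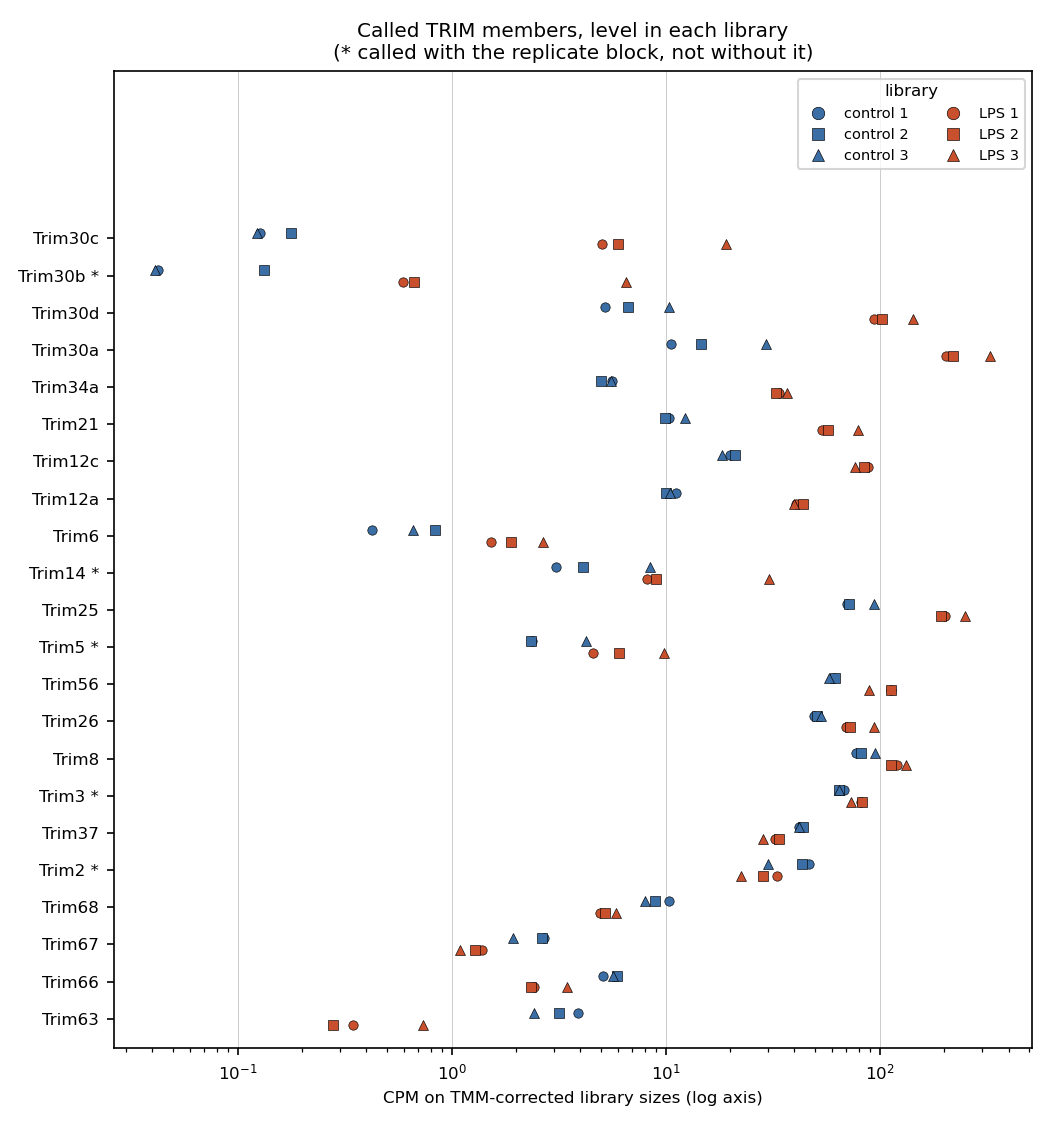
Level of each called member in each library (x axis, CPM on a log scale; circles, squares and triangles are libraries 1, 2 and 3; blue control, red LPS). Stars mark the 5 members called with the replicate block and not without it by the same test on all 6 libraries, and the triangles of Trim14, Trim30a, Trim30d and Trim5 lie to the right of the other libraries of their group.

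The 5 members that fell were spread over 5 of the role groups, with 1 in each. Trim63 (MuRF1), a ligase that marks sarcomere proteins of muscle for breakdown, fell most, from 3.90, 3.19 and 2.44 CPM in control to 0.346, 0.278 and 0.732 in LPS. The log2 fold change was -2.79 ± 0.42 (adjusted p = 0.012), 6.93-fold lower. Markers of contractile cells were lower as well: 5 of the 9 smooth muscle and mesenchymal markers were lower with LPS (Acta2, Myh11, Des, Tagln and Cnn1, log2 fold changes -1.94 to -1.12), and 2 were higher (Pdgfra and Dcn). None of the 9 was at 0. The part of those cells in the value of Trim63 was not tested. The remaining muscle members tested, Trim55 and Trim72, were below 1 CPM in every library but LPS library 3 of Trim55, at 2.72, and were not called.

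Trim66, a chromatin reader, was at 5.12, 5.93 and 5.66 CPM in control and 2.42, 2.34 and 3.45 in LPS (-1.02 ± 0.21, adjusted p = 0.0289). Trim67, a relative of the axon guidance ligase TRIM9, was at 2.71, 2.65 and 1.94 CPM in control and 1.38, 1.28 and 1.10 in LPS (-0.95 ± 0.23, adjusted p = 0.0445). Trim68, the member of the signaling group that fell, was at 10.4, 8.89 and 8.05 CPM in control and 4.94, 5.23 and 5.86 in LPS (-0.77 ± 0.16, adjusted p = 0.0281). Trim37, a ligase of centrosome and peroxisome biology, was abundant and moved little, from 42.1, 43.8 and 41.9 CPM to 32.3, 34.0 and 28.5 (-0.43 ± 0.09, adjusted p = 0.0313). No LPS library of the 5 genes overlapped a control library. These calls were close to the threshold: with a control library 1 or 2, or an LPS library 1 or 2, left out, none of the 5 passed, and 0.72% to 1.44% of all tested genes were called lower in those 4 fits.

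Trim2 and Trim3, NHL-repeat ligases of neurons, went opposite ways with the replicate block. Trim2 was at 46.8, 43.2 and 30.1 CPM in control and 33.2, 28.4 and 22.6 in LPS, with library 3 lowest in both groups and overlapping groups. Its log2 fold change was -0.51 ± 0.22 (adjusted p = 0.166), with an adjusted p of 0.0117 under the block and 0.00562 without the libraries numbered 3 (-0.52). Trim3 was at 67.9, 64.6 and 64.6 CPM in control and 82.2, 82.9 and 73.4 in LPS (0.27 ± 0.08, adjusted p = 0.0615). Its adjusted p was 0.0355 under the block, 0.0117 by DESeq2, 0.021 without LPS library 3 and 0.0045 without both libraries numbered 3 (0.34). It was not called with upper-quartile factors (0.17, adjusted p = 0.253) or on library size alone (0.12, adjusted p = 0.397). With the block 16 members were called higher, against 15.4% of all genes, and 6 lower, against 14.9%. It added Trim30b, Trim3, Trim5 and Trim14 to the higher members and Trim2 to the lower, and no call was lost.

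Of the 10 most abundant members, 8 were not called, where only 9.09% of all tested genes were called higher and 6.71% lower. Compared per kilobase of exon, the 10 highest in control cells were Trim28, Trim35, Trim44, Trim8, Trim47, Trim3, Trim25, Trim32, Trim59 and Trim41. Trim28 (KAP1), the corepressor of KRAB zinc finger proteins that silences retroelements, stood at 47.6 ± 3.06 CPM per kb in control and 44.6 ± 1.16 in LPS. Trim35 stood at 47.2 ± 1.5 and 47.3 ± 1.03. These levels of Trim28 and Trim35 differed by less than their spread in control. Trim44 stood at 26.8 ± 0.783 and 27.9 ± 0.13 CPM per kb, and was followed in control by Trim8 at 22.9 ± 2.51.

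In CPM, not per length, Trim28 was between 188 and 212 in control and between 182 and 191 in LPS (log2 fold change -0.09 ± 0.08, adjusted p = 0.451). Trim35 was at 212, 217 and 225 CPM in control and 215, 224 and 217 in LPS (0.00 ± 0.07, adjusted p = 0.97), and its sign turned under 2 of the other scalings. Trim24 and Trim33, chromatin readers related to Trim28, had log2 fold changes of -0.26 and -0.00242 and were not called. Trim59 was lower in every LPS library, at 45.7, 43.7 and 43.3 CPM in control and 36.9, 33.9 and 18.7 in LPS, but was not called (-0.57 ± 0.25, adjusted p = 0.183) unless LPS library 3 (-0.33) or both libraries numbered 3 (-0.31) were left out. Trim47 was at 38.2, 35.7 and 49.3 CPM in control and 49.4, 42.1 and 29.3 in LPS, so that library 3 went the other way (-0.03 ± 0.22, adjusted p = 0.948). Without both libraries numbered 3 it was called higher (0.33, adjusted p = 0.0311). Trim47 and Trim65 overlap by 225 exonic bases on the same strand. Trim32 and Trim41 had log2 fold changes of -0.09 and 0.26 and were not called. Of the 30 tested members that were not called, 19 had log2 fold changes within 0.3 of 0.

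The cluster came to make up a large part of the TRIM transcripts. Summed over all members, the level was 335, 331 and 343 CPM per kb in control and 500, 499 and 550 in LPS. The cluster supplied 4.27%, 4.74% and 5.89% of it in control and 24.7%, 25.9% and 31.9% in LPS. Without the cluster the sum was 320, 315 and 323 CPM per kb in control and 376, 369 and 375 in LPS. Trim30a alone went from 1.31 ± 0.689% to 11.8 ± 2.44% of the sum. By level per kb it ranked 22 in control and 1 in LPS, at 61.2 ± 16.4 CPM per kb against 47.3 ± 1.03 for Trim35 and 44.6 ± 1.16 for Trim28. Trim30a held 9.96%, 10.8% and 14.5% of the sum in LPS libraries 1, 2 and 3 and Trim35 held 9.32%, 9.73% and 8.53%. Trim30a was ahead in each, by less than its SD in libraries 1 and 2. Trim25 went from rank 7 to 4, Trim30d from 30 to 6, Trim12c from 21 to 8, Trim21 from 24 to 10 and Trim34a from 28 to 13.

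The libraries numbered 3 bear on some members and not on others. On the log2(CPM + 0.5) scale, library 3 minus the mean of libraries 1 and 2 was 1.13 in control and 1.76 in LPS for Trim14, 1.21 and 0.63 for Trim30a, 0.76 and 0.55 for Trim30d, 0.73 and 0.83 for Trim5, and 0.94 and 1.16 for Trim29. It was 0.52 and 0.77 for Trim72, -1.30 and -1.68 for Trim16 and -0.63 and -1.44 for Trim7. Trim34a, Trim12a and Trim12c differed by at most 0.17 in size in either group. Trim30b, Trim55 and Trim30c stood apart mainly in LPS library 3, by 2.64, 2.23 and 1.71. Over the 12 members called higher, LPS library 3 was above both other LPS libraries in 9 and below both in 3 (26 and 16 of all 47 tested members). Control library 3 was above both other control libraries in 6 and below both in 3 (18 and 21 of the 47). The part of the macrophage content in these members was not tested. Without both libraries numbered 3, all 17 calls were kept, 19 members were higher against 22.6% of all genes, and 7 were lower against 20.4%. The added calls were Trim14, Trim3, Trim30b, Trim47, Trim5, Trim65 and Trim7 (0.89, adjusted p = 0.0152) among the higher and Trim2 and Trim59 among the lower.

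**Figure D4:**
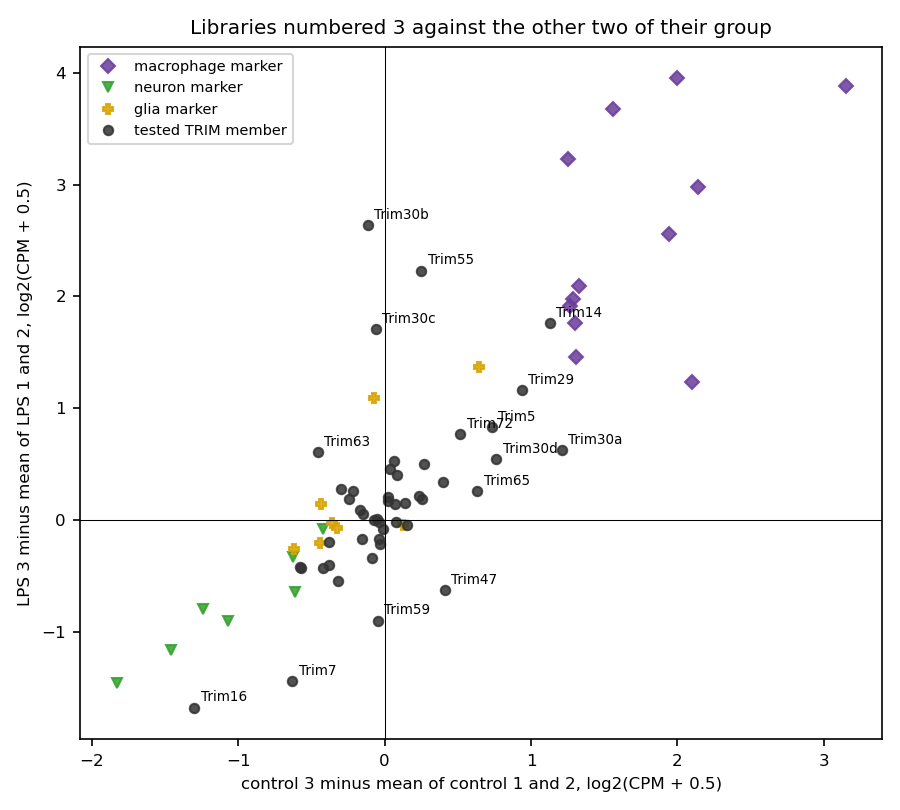
Library 3 minus the mean of libraries 1 and 2 of its group, on the log2(CPM + 0.5) scale, in control (x axis) and LPS (y axis). Each point is a tested TRIM member or a marker gene. Macrophage markers lie at the upper right, neuron markers at the lower left, Trim14 at 1.13 and 1.76, and Trim16 at -1.30 and -1.68.

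Calls differed in how many settings they held under. Trim12a, Trim12c, Trim21, Trim25, Trim30a, Trim30c, Trim30d and Trim34a were called under every setting in which they were tested, including each fit that left out a library. The other 9 called members each lost the call in at least 2 of the 6 fits without a library.

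**Figure D5:**
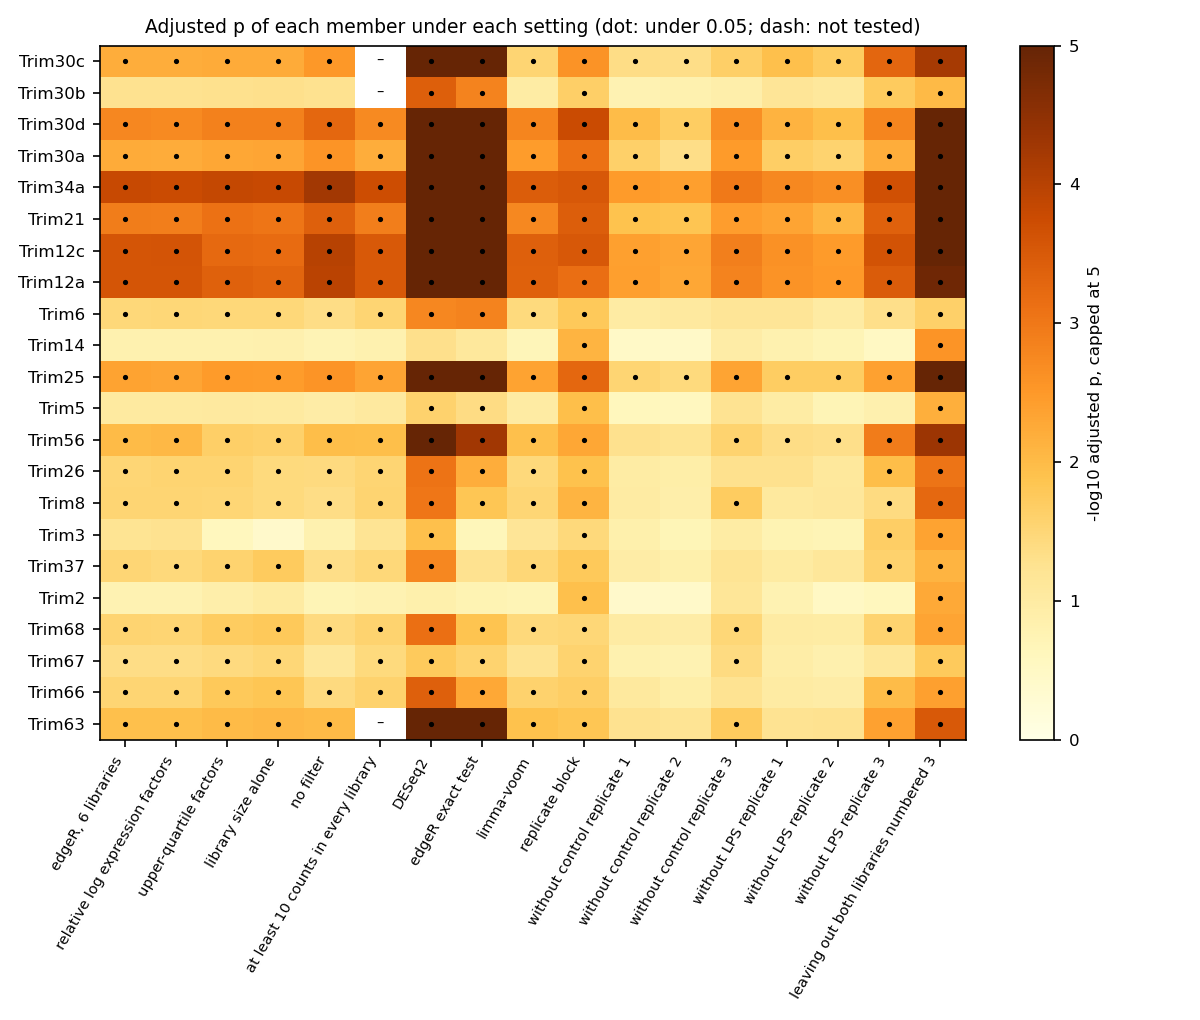
Adjusted p of each called member (rows) under each setting (columns), shown as -log10 capped at 5, with a dot where it is under 0.05 and a dash where the gene was not tested. Rows of Trim34a, Trim12a, Trim12c, Trim21, Trim25, Trim30a, Trim30c and Trim30d carry a dot in every column that has a value, and the 4 columns without library 1 or 2 hold the fewest dots.

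Genes that work with TRIM ligases were read from lists chosen for the pathway. Of 17 ubiquitin-conjugating enzymes, ubiquitin genes and partners, 3 were higher and none lower, beside 9.09% and 6.71% of all tested genes: Ube2l6, the E2 enzyme of the ubiquitin-like protein ISG15 (log2 fold change 3.12), the ubiquitin gene Ubb (0.56) and the E1 enzyme Uba1 (0.40). Of 15 targets and co-factors of TRIM28 and of TRIM21 and TRIM25 signaling, 6 were higher and 1 lower, beside the same shares of all genes. The 6 include Nlrp3, Tmem173, Tbk1 and Traf3, which are genes of innate signaling at large. Ddx58, which encodes the TRIM25 substrate RIG-I, rose by 3.25 and Rnf135, a RING ligase that acts on RIG-I, by 1.23 on the log2 scale. Cbx5, a heterochromatin protein that TRIM28 recruits, fell by 0.44. Its relatives Cbx1 and Cbx3 (-0.09 and -0.22) and Setdb1 (0.15) were not called. All 14 tested genes of the interferon response list were higher, with log2 fold changes of 1.99 to 8.27. Their list summed to 3100, 3500 and 5610 CPM in LPS libraries 1, 2 and 3, and library 3 was above both others for 13 of its 15 genes. TRIM proteins known by other names split: Pml (TRIM19) was higher (1.30, adjusted p = 0.00667), Mid2 (TRIM1) was lower (-0.87, adjusted p = 0.0288), and Mid1 was not called.

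The 20 members that were not tested had few or no counts. Trim31, Trim40, Trim42, Trim43c, Trim50, Trim60 and Trim75 had no count in any library. Trim10, Trim15, Trim17, Trim34b, Trim38, Trim43a, Trim43b, Trim52, Trim54, Trim58, Trim69, Trim71 and Trim80 had counts, and none reached 0.7 CPM in any library. All 8 members of the germline and little described group were among the 20, as were Trim31, Trim38 and Trim40 of the signaling group.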

How the data were processed

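Per the labels and the study's methods, reads were adapter- and quality-trimmed, filtered and aligned to GRCm38. The submitters' processing notes name cutadapt 1.15, Bowtie2 2.3.3.1, STAR 2.5.2b, SAMtools 1.5 and featureCounts 1.5.3. The authors deposited raw counts per gene and library, and no replicates were pooled. The strand and multi-mapping settings are not given in the sources used here. A joint table was not used here.

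Genes were filtered with filterByExpr (minimum count 10, minimum total 15), scaled by TMM and tested with the two-sided quasi-likelihood F-test of edgeR 4.0.16 (R 4.3.3), group as the single term, with Benjamini-Hochberg adjustment over all 15226 genes. Exon lengths and coordinates come from GENCODE M21, promoter windows from RefSeq (GRCm38.p6). All 67 members were found in GENCODE, and 52 had a window. DESeq2 1.42.0 and limma 3.58.1 were alternatives. Scripts were tested on simulated data.

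Same-numbered libraries deviated together (r = 0.513, 0.334 and 0.613), but libraries 1 and 2 also correlated across numbers (0.323 and 0.419). Library 3 of each group correlated negatively with libraries 1 and 2 of the other (-0.564 to -0.396). A pairing of libraries 1 and 2 by number is thus not shown, and the labels do not state one. The replicate number was a block in an alternative fit only.

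The members, roles and lists were chosen with earlier results of these data known. The text names every member called or changed by the block, the 10 highest per kb in control, the tested cluster members and, without fold changes, the untested ones. Others are given by range or as examples.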

Additional observations from a re-analysis of the deposited data

How the results depend on the processing

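The edgeR test was repeated under other scalings, filters, tools and the replicate block, and without each library in turn. Leaving out both libraries numbered 3 was chosen after seeing the data. The number of members called higher stayed within 8 and 14 and the number lower within 0 and 5 over the fits without 1 library, while 2.44% to 12.6% of all genes were called higher and 0.72% to 9.13% lower in the same fits, and 19 members were higher without both libraries numbered 3. Among signaling members, the fits without 1 library gave 2 to 5 higher and 0 to 1 lower. In the same fits the chromatin, neuronal and muscle groups had 0 to 1 lower and the other cellular roles 0 to 2. The neuronal group had 0 lower without a filter and by limma-voom, and 2 with the replicate block and without the libraries numbered 3. The muscle group had 0 lower with at least 10 counts required in every library, where Trim63 was not tested. The other cellular roles had 2 lower on library size alone and without the libraries numbered 3, and 0 by the edgeR exact test. The median log2 fold change of the members was -0.00823 with upper-quartile factors, -0.0601 on library size alone, 0.177 without a filter, between 0.0702 and 0.203 without 1 library and 0.174 without both libraries numbered 3. Upper-quartile factors and library size alone moved the median over all genes to -0.124 and -0.175, and under them 1050 and 986 genes were called higher and 1589 and 2054 lower, against 1384 and 1022.

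Of the 29 members followed singly, directions turned for 4, all near 0 in the edgeR test on all 6 libraries. Trim47 alone was called where it turned, higher without both libraries numbered 3 (adjusted p = 0.0311, edgeR quasi-likelihood test). Trim35 was at -0.0985 with upper-quartile factors, -0.15 on library size alone, -0.0148 without a filter and between -0.012 and 0.0454 without 1 library, with -0.00694 without control library 1. Trim44 was at -0.0446 and -0.0966 under the same scalings. Trim32 was between -0.211 and 0.0285 without 1 library, the latter without LPS library 3. Trim47 was between -0.2 and 0.155 without 1 library, at 0.14 without control library 3, at 0.155 without LPS library 3 and 0.333 without both libraries numbered 3. Of the 18 other tested members, 9 turned under at least 1 setting, none of them called there. The replicate block changed no call but the 5 named in the report. The cause of these shifts was not tested. Without a filter 60 members could be tested, and the 7 with no count could not.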

Other observations

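A neighbor with counts lies inside the cluster. Gm16464, a processed pseudogene within the span of Trim30d, was at 8.26, 6.24 and 8.30 CPM in control and 13.8, 11.2 and 14.5 in LPS (log2 fold change 0.79 ± 0.17, edgeR adjusted p = 0.0346). It was chosen after its values were seen. Trim30d lies on the same strand, and whether the counts of Gm16464 come from its own transcription was not tested. The pseudogene Trim30e-ps1 had 6 counts, all in LPS libraries, and the TRIM-like genes Triml1 and Triml2 had 1 and 0.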
